A study of Mus musculus with 4 samples.

Results

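Hepatocyte transcription factors are the DNA-binding proteins that set and keep the gene programme of the liver parenchyma, and 9 genes for them were followed here: Hnf4a, Cebpa, Cebpb, Foxa1, Foxa2, Foxa3, Onecut1, Nr5a2 and Prox1. They were found as gene probes that carry 1 of these symbols in the scanner files, which gave 12 probes for 9 of the 30458 genes or transcripts named on the array. The RNA came from livers of male C57BL/6J mice fed a high-fat diet, and each of the 4 groups formed by genotype and feeding state was read on 1 one-color array, with all 4 on 1 slide and in 1 scan. Drp1LiKO mice lack Drp1, the dynamin-related GTPase of mitochondrial fission, in albumin-Cre expressing cells (Alb-Cre Tg/+ with Drp1 flox/flox), and the controls (Cont) were Drp1 flox/flox littermates, per the paper. In the labels these genotypes are called knockout and wild type. The labels give 24 weeks of diet, and the methods give a start at 4 weeks of age and a range of weeks. The refed mice were fasted for 17 h and refed for 4 h per the series description, while the methods give a slightly shorter fast. The labels of the other Cont and Drp1LiKO livers name no feeding state. They are called fasted here from the paper, whose methods describe fasted mice and whose results name fasted and refed livers for this series, and every fasted value and every refeeding difference rests on that reading. The series description mentions refed mice only. The labels also state that these arrays share raw data with an earlier submission. The array design and the RNA kit differ between labels and methods. Per the methods, fasted and refed livers were collected at different hours of the day, so feeding state and hour cannot be told apart.

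Liver identity rests on a network in which these factors bind each other's genes and many shared targets. The nuclear receptor Hnf4a keeps a large part of adult hepatocyte expression on, the forkhead factors Foxa1, Foxa2 and Foxa3 open chromatin for other factors, and the leucine zipper factors Cebpa and Cebpb serve metabolic and acute-phase genes. Onecut1, Nr5a2 and Prox1 act in hepatocyte and bile duct development and in adult glucose, bile acid and lipid metabolism.

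Levels are log2 signals relative to the 75th percentile of the array, which was at a signal of 461 in the fasted Cont, 722 in the fasted Drp1LiKO, 357 in the refed Cont and 526 in the refed Drp1LiKO liver. The share of gene spots well above background was 51.4%, 58.2%, 48.7% and 55.4% in the same order, and all 12 probes were well above background on all 4 arrays. No group has a replicate. Standard errors (SE) come from the scanner's error model, cover measurement only and were 0.20 for most differences of these genes, so differences between animals are not covered. A gene was called at a difference of at least 2-fold, which is 1 on the log2 scale. Dnm1l, which encodes Drp1, had levels of 1.02 in the fasted Cont, 0.81 in the fasted Drp1LiKO, 0.66 in the refed Cont and 0.54 in the refed Drp1LiKO liver. Its probe gave genotype differences of -0.21 (SE 0.20) and -0.12 (SE 0.20), and since its place relative to the floxed exons is not given in the sources used here, it does not check the labels. The hepatocyte markers Alb, Ttr, Apoa1, Apob, Cps1, Trf, Ahsg and Fga, 8 of 8, were well above background on all 4 arrays, with Alb, the gene of serum albumin, as the brightest.

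Onecut1, the cut-homeodomain factor also called HNF6, is read by a pair of probes on chromosome 9 that share no base. Their starts lie 26481 bases apart, and 30 bases of each are shown because they carry the largest genotype difference among the 9 genes (mm9, plus strand, chr9:74737402-74737431 for the first and chr9:74710951-74710980 for the second, which is assigned to NM_008262).
Onecut1 brighter probe: atgagggaggaagaaccacggactagtacc
Onecut1 dimmer probe: gaagtaattcagggcagatggaagagatca

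The first comparison asks how loss of Drp1 in hepatocytes relates to these factors in the fasted liver. Onecut1 differed most, with close to 4-fold less signal in the Drp1LiKO liver, and the pioneer factor Foxa1 was lower by a little over 2-fold. Foxa2, Nr5a2 and Cebpa were lower by smaller amounts, and Foxa3 was higher. Hnf4a, Cebpb and Prox1 differed by less than 2 measurement SEs.

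The brighter Onecut1 probe read 4.50 in the fasted Cont, 2.51 in the fasted Drp1LiKO, 3.60 in the refed Cont and 2.06 in the refed Drp1LiKO liver. Both Cont livers lay above both Drp1LiKO livers. The fasted difference (Drp1LiKO minus Cont) was -2.00 (SE 0.20), which is 3.99-fold lower. The other probe read -0.58, -2.38, -1.42 and -2.83 in the same order and gave -1.80 (SE 0.21). It is dim as well, with linear signals of 139 and 73.9 in the Drp1LiKO livers. Under 8 other settings for scaling, background, probe choice and dim or outlier spots, the fasted difference of Onecut1 lay between -2.05 and -1.84. Among 14447 genes detected on every array, 0.298% had a lower fasted difference than Onecut1.

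Among the forkhead factors, Foxa1 read 1.995 in the fasted Cont, 0.90 in the fasted Drp1LiKO, 0.60 in the refed Cont and 0.95 in the refed Drp1LiKO liver. The fasted Cont liver stood alone above the other livers. The fasted difference was -1.10 (SE 0.20), which is 2.14-fold lower. Foxa2, a forkhead factor of lipid and glucose metabolism in fasting, read 3.57, 2.82, 2.57 and 2.67 in the same order. The fasted Cont liver was again the highest, with a difference of -0.76 (SE 0.20). Foxa3, the remaining forkhead factor, read 0.997 in the fasted Cont and 1.68 in the fasted Drp1LiKO liver, a difference of 0.69 (SE 0.20) in the other direction.

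Nr5a2, the nuclear receptor LRH-1 of bile acid and cholesterol metabolism, read 2.49 in the fasted Cont and 1.83 in the fasted Drp1LiKO liver, a difference of -0.66 (SE 0.20). Its second probe, dim but well above background with 84.9 and 131 in linear signal, gave -0.02 (SE 0.24), so the probes of Nr5a2 do not give the same difference. Cebpa, a leucine zipper factor that keeps hepatocytes differentiated and serves gluconeogenic genes, read 3.92 in the fasted Cont and 3.32 in the fasted Drp1LiKO liver, a difference of -0.60 (SE 0.20). Cebpb, its acute-phase relative, read 4.12 and 4.06, with a difference of -0.05 (SE 0.20) that turned to 0.19 with quantile normalization and was positive in the authors' table too. Hnf4a read 6.33 and 6.01, with a difference of -0.32 (SE 0.20) that was 0.00 with quantile normalization and in the authors' table. Prox1, a homeodomain protein that restrains Hnf4a and Nr5a2, read -1.69 and -1.33, with a difference of 0.37 (SE 0.22).

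Called lower in the fasted Drp1LiKO liver were 2 of the 9 genes, Onecut1 and Foxa1, beside 5.19% of 18040 genes detected in at least 1 of these livers. None of the 9 was called higher, beside 8.06% of all genes. At 1.5-fold, in either direction, 6 of the 9 passed, namely Cebpa, Foxa1, Foxa2, Foxa3, Nr5a2 and Onecut1, beside 28.2% of all genes. With quantile normalization Cebpa at -0.39, Foxa2 at -0.58 and Nr5a2 at -0.53 fell short of 1.5-fold, as did Nr5a2 at -0.34 by the median over its probes and Cebpa at -0.53 with normexp background correction. The median difference of the 9 genes was -0.60 and that of all genes -0.08, against -0.39 and 0.01 with quantile normalization. That of the hepatocyte markers was -0.63 and depended on scaling too. RNA was taken from whole liver, so fewer hepatocytes and less RNA per hepatocyte cannot be told apart. No p-value exists within this comparison.

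**Figure D1:**
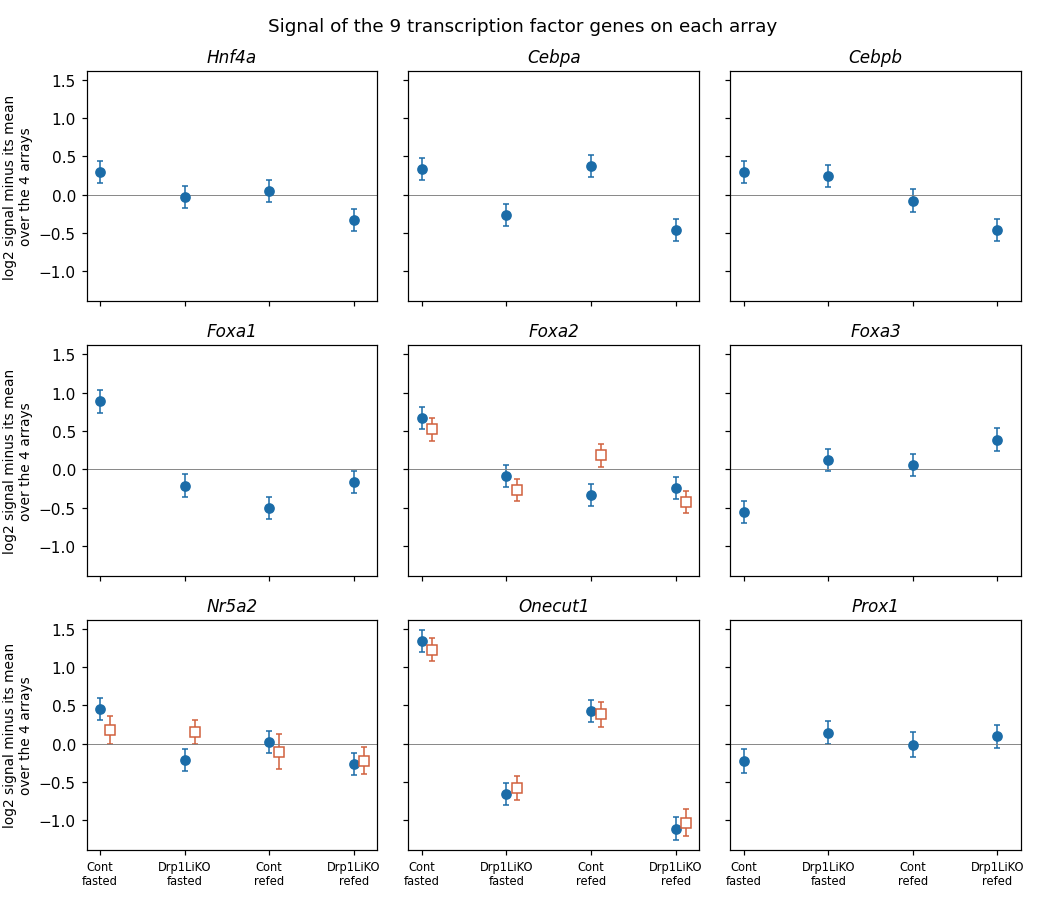
Signal of each of the 9 genes on each array, with feeding state and genotype on the horizontal axis. The vertical axis is the log2 signal relative to the array's 75th percentile minus its mean over the 4 arrays, filled circles are the probe used for the gene, open squares a second probe, and bars are 1 measurement SE. Onecut1 is lower in both Drp1LiKO livers by both probes, and Foxa1 is highest in the fasted Cont liver.

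After refeeding, Onecut1 was again the lowest of the 9 genes in the Drp1LiKO relative to the Cont liver, and Cebpa followed. Foxa1 and Foxa2, lower in the fasted Drp1LiKO liver, were not lower in the refed one by the probes used. Hnf4a, Cebpb and Nr5a2 were slightly lower, and Foxa3 was slightly higher, each by less than 2 measurement SEs.

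The refed difference of Onecut1 was -1.54 (SE 0.20) by the brighter probe, 2.91-fold lower, and -1.41 (SE 0.23) by the other. It lay between -1.54 and -1.38 under the 8 other settings. Cebpa read 3.96 in the refed Cont and 3.12 in the refed Drp1LiKO liver, a difference of -0.84 (SE 0.20). The 2 Drp1LiKO livers were thus both below both Cont livers for Cebpa as well, by amounts short of 2-fold.

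Foxa1 read 0.60 in the refed Cont and 0.95 in the refed Drp1LiKO liver, a difference of 0.35 (SE 0.20). Foxa2 gave 0.09 (SE 0.20) by the brighter probe and -0.61 (SE 0.20) by the other, and the median over its probes was -0.26. These Foxa2 probes lie 55 bases apart on chromosome 2 and share 5 bases, and 30 bases of each that do not overlap are shown because they disagree (mm9, minus strand, chr2:147868699-147868728 and chr2:147868614-147868643).
Foxa2 brighter probe: cgggtctgatttaatttatggtttctgcgt
Foxa2 dimmer probe: aatctatattaaagtgttattgccgatttt

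The dimmer Foxa2 probe read 1.25 in the fasted Cont, 0.46 in the fasted Drp1LiKO, 0.91 in the refed Cont and 0.31 in the refed Drp1LiKO liver. By this probe both Drp1LiKO livers were below both Cont livers, whereas by the brighter one the refed Cont liver was the lowest. The fasted difference was alike by either probe, at -0.76 and -0.79, so a lower Foxa2 signal in the fasted Drp1LiKO liver is read by both probes and its refed difference is not settled by these probes.

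Foxa3 read 1.61 and 1.95 in the refed Cont and Drp1LiKO livers, a difference of 0.34 (SE 0.20). Hnf4a read 6.08 and 5.71, Cebpb 3.74 and 3.36, and Nr5a2 2.06 and 1.78, with differences of -0.38 (SE 0.20), -0.39 (SE 0.20) and -0.28 (SE 0.20). Quantile normalization took those of Hnf4a and Cebpb to -0.23 and -0.25. Prox1 read -1.48 and -1.37, with a difference of 0.11 (SE 0.22) that turned to -0.05 with normexp background correction. The second Nr5a2 probe gave -0.02 (SE 0.24) in the fasted and -0.12 (SE 0.29) in the refed liver, each smaller than its SE. By the probes used, Cebpa, Nr5a2 and Onecut1 were thus each lower in the Drp1LiKO liver in both feeding states, and Foxa3 was higher in both. Hnf4a and Cebpb were also lower in both, except that in the fasted liver quantile normalization and the authors' table gave 0.00 and 0.19.

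Called lower in the refed Drp1LiKO liver was 1 of the 9 genes, Onecut1, beside 6.33% of 17446 genes. None was called higher, beside 8.05%. At 1.5-fold, Cebpa and Onecut1 passed, 2 of 9, beside 30.1% of all genes in either direction. The median of the 9 genes was -0.28 and that of all genes -0.04.

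**Figure D2:**
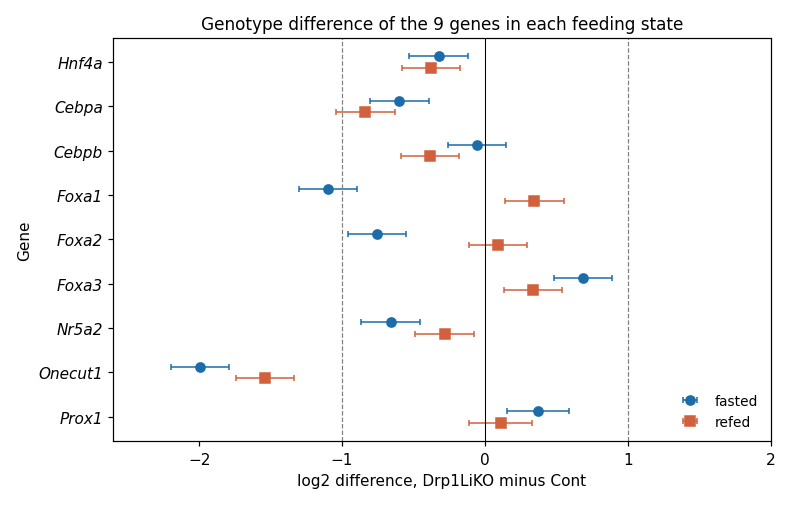
Drp1LiKO minus Cont differences of the 9 genes in the fasted (circles) and refed (squares) liver on the log2 scale, with bars of 1 measurement SE and dashed lines at 2-fold. Onecut1 lies past the lower line in both feeding states, at -2.00 and -1.54, and Foxa1 only in the fasted liver, at -1.10.

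Refeeding in Cont liver, the reference response, went with lower signals of the forkhead factors Foxa1 and Foxa2 and of Onecut1, and with a higher signal of Foxa3. Cebpa, Cebpb, Hnf4a and Prox1 differed by less than 2 measurement SEs. The Cont difference (refed minus fasted) of Foxa1 was -1.39 (SE 0.20), 2.63-fold lower. For Foxa2 it was -0.999 (SE 0.20) by the brighter probe, just short of 2-fold, and -0.34 (SE 0.20) by the other. Onecut1 gave -0.90 (SE 0.20), and -0.84 (SE 0.22) by its other probe, and Foxa3 gave 0.61 (SE 0.20).

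Nr5a2 gave -0.43 (SE 0.20) and Cebpb -0.37 (SE 0.20). The differences of Hnf4a and Prox1 were -0.25 (SE 0.20), which became -0.54 with quantile normalization, and 0.21 (SE 0.23). That of Cebpa was 0.04 (SE 0.20) and turned negative with quantile normalization and, at -0.13, in the authors' table. Called lower on refeeding in Cont liver was 1 of the 9 genes, Foxa1, beside 5.83% of 16437 genes, and none was called higher, beside 4.47%. At 1.5-fold, Foxa1, Foxa2, Foxa3 and Onecut1 passed, 4 of 9, beside 21.8% of all genes, and Foxa3 fell short of it with normexp background correction (0.54) and quantile normalization (0.57). This comparison shares the fasted Cont array with the fasted genotype comparison, so the high Foxa1 and Foxa2 signals of that array enter both. With quantile normalization Foxa2 at -1.09 and Onecut1 at -1.08 also passed 2-fold.

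In Drp1LiKO liver, Cebpa, Foxa1, Foxa2, Nr5a2 and Prox1 lay within 1 measurement SE of their fasted signal by the probes and scaling used. Cebpb had the largest refeeding difference in this genotype, on the lower side, and Onecut1 was also lower. The Drp1LiKO refeeding difference of Cebpb was -0.70 (SE 0.20) and that of Onecut1 -0.45 (SE 0.20). For Foxa1 it was 0.05 (SE 0.20), against -1.39 in Cont liver. For Foxa2 it was -0.15 (SE 0.20) by the brighter probe, which became -0.35 with quantile normalization, and -0.15 (SE 0.20) by the other.

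Hnf4a gave -0.30 (SE 0.20), Foxa3 0.26 (SE 0.20) and Cebpa -0.20 (SE 0.20). Quantile normalization and the authors' table made the differences of Hnf4a and Cebpa larger, at -0.77 and -0.44. The difference of Nr5a2, -0.05 (SE 0.20), turned to 0.04 with median scaling, and its second probe gave -0.38 (SE 0.24). That of Prox1, -0.05 (SE 0.21), turned positive with median scaling, with quantile normalization and, at 0.05, in the authors' table. None of the 9 genes was called lower, beside 7.15% of 18329 genes, and none higher, beside 5.61%. At 1.5-fold, 1 of the 9, Cebpb, passed, beside 32.4% of all genes. With quantile normalization Hnf4a and Onecut1, at -0.77 and -0.61, were past 1.5-fold too. The difference between the genotypes' refeeding responses, which equals the difference between the feeding states' genotype differences, was 1.44 (SE 0.29) for Foxa1, 0.85 (SE 0.29) for Foxa2 by the brighter and 0.19 (SE 0.29) by the other probe, and 0.46 (SE 0.29) for Onecut1. These SEs cover measurement only, and the difference was not tested over animals.

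**Figure D3:**
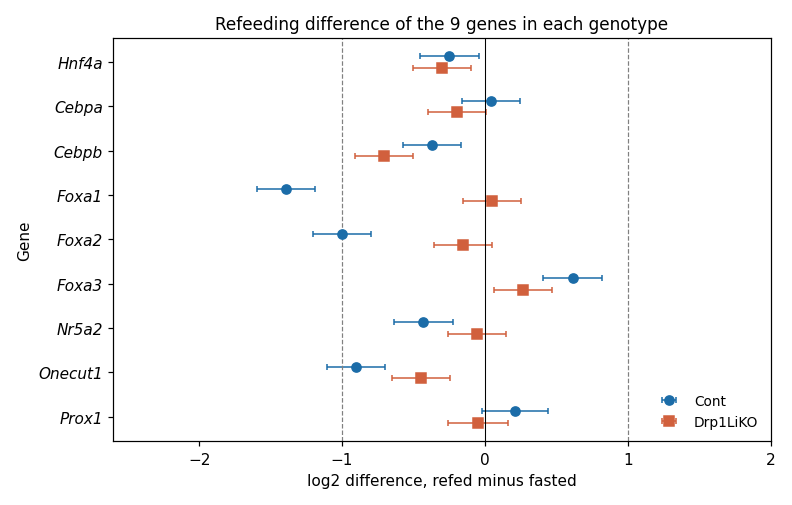
Refed minus fasted differences of the 9 genes in Cont (circles) and Drp1LiKO (squares) liver on the log2 scale, with bars of 1 measurement SE and dashed lines at 2-fold. Foxa1 differs by -1.39 in Cont and by 0.05 in Drp1LiKO liver, and the Foxa2 probe used by -0.999 and -0.15.

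The additive limma model over all 4 arrays asks for a genotype term and a refeeding term at once. Onecut1 had the lowest genotype estimate of the 9 genes, and no gene of the 9 was called. Its genotype estimate was -1.77 (SE 0.18, limma adjusted p = 0.0928), and its refeeding estimate -0.68 (SE 0.18, limma adjusted p = 0.17). Cebpa followed for genotype with -0.72 (SE 0.15, limma adjusted p = 0.114), and Foxa3 with 0.51 (SE 0.17, limma adjusted p = 0.168). For refeeding, Foxa1 gave -0.67 (SE 0.41, limma adjusted p = 0.352), Foxa2 -0.58 (SE 0.27, limma adjusted p = 0.256) and Cebpb -0.54 (SE 0.16, limma adjusted p = 0.178).

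At an adjusted p of 0.05, 0% of the 16744 genes tested were called for genotype and 0% for refeeding, while 3 of the 9 genes for genotype and 2 for refeeding had an unadjusted limma p under 0.05, as had 4746 and 4414 of all genes. Restricted to genes detected on every array, Onecut1 was called for genotype by limma (adjusted p = 0.0248), as were 8.4% of these genes. It was also called by limma with median scaling (adjusted p = 0.0394, beside 1.91% of genes), normexp background correction (0.0308, beside 2.97%) and an intensity trend (0.0314, beside 2.83%). Over 13 settings fitted to 1 value per gene its adjusted limma p ran from 0.0248 to 0.231. The model has 1 residual degree of freedom and counts any interaction as error, which includes the refeeding contrast of Foxa1.

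By the distance between centred levels over the 4 arrays, the genes most like Foxa1 among the 14447 were 2610035D17Rik (distance 0.162) and LOC100503215 (0.2). Most like Onecut1 were Ncmap (0.207), which read -0.19 in the fasted Cont, -2.43 in the fasted Drp1LiKO, -1.07 in the refed Cont and -2.72 in the refed Drp1LiKO liver, and Gm3734 (0.47). With so few arrays many genes can come this close, and nothing about shared control follows.

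Hnf4a itself differed little, but an antisense transcript of its locus did not follow it. Hnf4aos, a noncoding RNA on the opposite strand, read 2.06 in the fasted Cont, -1.50 in the fasted Drp1LiKO, 2.24 in the refed Cont and 1.06 in the refed Drp1LiKO liver. The fasted Drp1LiKO liver stood far below the other livers, and the refed one lay between it and the Cont livers. The genotype differences were -3.56 (SE 0.21) in the fasted and -1.18 (SE 0.20) in the refed liver, beside -0.32 and -0.38 for Hnf4a. It was the only 1 of 9 antisense symbols looked for that was on the array. On refeeding Hnf4aos was higher by 2.57 (SE 0.21) in Drp1LiKO liver and by 0.19 (SE 0.20) in Cont liver.

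RefSeq start sites (GRCm38.p6) were found for all 9 genes, in 14 windows of 250 bases before a start. Searched on both strands were CAAAGTCC, a core bound by Hnf4a, ATTGAT, bound by Onecut factors, TGTTTAC, bound by forkhead factors, and TTGCGC, a part of the C/EBP motif. Of 32851 windows of all genes, these letters occur in 1.2%, 6.72%, 3.17% and 5.34%, and of the 14 windows in 0, 2, 1 and 1. A match describes the letters and is not evidence of binding. The Onecut1 window on chr9:74861671-74861920 (plus strand), shown because Onecut1 differed most, holds none of them.
Onecut1: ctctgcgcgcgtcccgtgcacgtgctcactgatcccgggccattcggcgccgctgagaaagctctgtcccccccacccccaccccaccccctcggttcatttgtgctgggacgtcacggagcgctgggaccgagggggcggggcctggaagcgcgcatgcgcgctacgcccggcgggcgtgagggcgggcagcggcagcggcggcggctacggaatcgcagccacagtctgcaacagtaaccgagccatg

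These forkhead factor windows are shown because Foxa1 and Foxa2 were both highest in the fasted Cont liver. Capitals mark the letters searched. The Foxa1 window (chr12:57546112-57546361, minus strand) holds the forkhead letters on the other strand 141 bases before the start. Of the 3 Foxa2 windows, only that at chr2:148046970-148047219 (minus strand) holds any of the letters, those of the Onecut factors, and it alone is shown.
Foxa1: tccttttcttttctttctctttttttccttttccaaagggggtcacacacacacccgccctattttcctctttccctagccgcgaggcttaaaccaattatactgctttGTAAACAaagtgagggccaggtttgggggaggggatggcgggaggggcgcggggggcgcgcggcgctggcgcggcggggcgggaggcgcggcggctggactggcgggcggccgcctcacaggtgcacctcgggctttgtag
Foxa2: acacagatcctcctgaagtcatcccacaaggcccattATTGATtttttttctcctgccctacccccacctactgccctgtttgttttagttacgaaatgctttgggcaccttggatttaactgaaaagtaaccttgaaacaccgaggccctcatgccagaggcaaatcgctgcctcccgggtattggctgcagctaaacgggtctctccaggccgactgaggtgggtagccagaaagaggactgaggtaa

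Hnf4a has a distal and a proximal start, of which the proximal serves adult liver, and Hnf4aos starts between them on the other strand. The distal window (chr2:163506607-163506856, plus strand) holds the Onecut letters 59 bases before the start, and the proximal one (chr2:163546905-163547154, plus strand) holds none of the letters. The Hnf4aos window (chr2:163541722-163541971, minus strand) holds the Hnf4a letters 51 bases before the start. Which Hnf4a start the probe reads was not tested.
Hnf4a distal: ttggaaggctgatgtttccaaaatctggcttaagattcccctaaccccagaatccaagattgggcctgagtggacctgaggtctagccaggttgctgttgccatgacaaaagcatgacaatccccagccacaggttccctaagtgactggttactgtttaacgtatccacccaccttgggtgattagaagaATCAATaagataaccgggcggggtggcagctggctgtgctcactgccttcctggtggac
Hnf4a proximal: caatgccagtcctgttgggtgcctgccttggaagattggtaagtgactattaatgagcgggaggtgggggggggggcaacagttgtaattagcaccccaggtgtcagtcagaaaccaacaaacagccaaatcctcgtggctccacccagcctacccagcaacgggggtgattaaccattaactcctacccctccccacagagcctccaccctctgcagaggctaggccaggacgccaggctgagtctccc
Hnf4aos: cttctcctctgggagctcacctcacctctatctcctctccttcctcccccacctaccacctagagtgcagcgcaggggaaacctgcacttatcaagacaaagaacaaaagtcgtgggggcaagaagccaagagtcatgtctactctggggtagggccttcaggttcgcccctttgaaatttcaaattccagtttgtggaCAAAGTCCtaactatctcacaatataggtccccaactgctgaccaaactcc

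Known targets of the 9 factors were read from lists, in which a gene can stand under several factors, and the genes named from them were chosen after the values were seen. Of all genes, 5.19% were called lower and 8.06% higher in the fasted Drp1LiKO liver, and 6.33% and 8.05% in the refed one. Of 6 targets listed for Onecut1, 4 were lower in the fasted Drp1LiKO liver, with a list median of -0.22, and 5 in the refed one, with -0.55. G6pc, the glucose-6-phosphatase that releases glucose, gave 0.23 (SE 0.20) and -1.90 (SE 0.20). Cyp7a1, the first enzyme of bile acid synthesis, gave -0.17 (SE 0.20) and 1.61 (SE 0.20).

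Of 8 Foxa targets, 6 were higher in the fasted Drp1LiKO liver (median 0.53) and 4 in the refed one (median 0.24), with 3 called higher in each and 0 and 1 called lower. Quantile normalization took these medians to 0.80 and 0.50, with 7 and 4 higher. Igfbp1, a secreted IGF binding protein that is high in fasting, read 3.40 in the fasted Cont, 7.08 in the fasted Drp1LiKO, 1.52 in the refed Cont and 2.67 in the refed Drp1LiKO liver. Its genotype differences were 3.68 (SE 0.20) and 1.15 (SE 0.20). Afp, the fetal albumin relative, gave 1.96 (SE 0.32) and 1.77 (SE 0.28), the tyrosine aminotransferase Tat 1.04 (SE 0.20) and 0.98 (SE 0.20), and the urea cycle enzyme Cps1 0.60 (SE 0.20) and 1.24 (SE 0.20).

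Of 24 Hnf4a targets, 18 were lower in the fasted and 21 in the refed Drp1LiKO liver, with medians of -0.39 and -0.45, 0 and 2 called lower and 1 called higher in each. With quantile normalization their medians were 0.00 and -0.18, with 11 and 17 lower. The deiodinase Dio1, called lower in the refed liver, gave -0.94 (SE 0.20) and -1.17 (SE 0.20). Of 18 C/EBP targets, 11 were lower in the fasted liver (median -0.25) and 8 in the refed one (median 0.11), and quantile normalization turned the fasted median to 0.07. The acute-phase genes Saa1 and Saa2 had the largest fasted differences, at -2.11 (SE 0.20) and -1.98 (SE 0.20), and gave 0.42 (SE 0.20) and 0.20 (SE 0.20) in the refed liver, where G6pc differed most.

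Of 8 Nr5a2 targets, 6 were lower in the fasted liver (median -0.22) and 7 in the refed one (median -0.46). Nr0b2, the corepressor SHP that is both a target of Nr5a2 and a brake on it, gave 0.69 (SE 0.20) and -1.36 (SE 0.21), and the sterol transporter Abcg8 gave -0.73 (SE 0.21) and -1.57 (SE 0.23). Of 7 cofactors and regulators, 2 were lower in the fasted liver (median 0.07) and 5 in the refed one (median -0.18), with Nr0b2 and the acetyltransferase Crebbp (-1.19, SE 0.20) called lower after refeeding. Their fasted median was 0.30 by the median over probes, with 1 lower, and 0.02 with median scaling, with 3 lower. Over all genes the medians were -0.08 and -0.04.

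Other liver transcription factors gave 22 of 27 measured genes lower in the fasted Drp1LiKO liver (median -0.47) and 21 in the refed one (median -0.28), with 4 and 2 called lower and 1 called higher in each. Quantile normalization gave medians of -0.29 and -0.23, with 20 lower in each. The PAR leucine zipper factors of the clock output, Dbp, Tef and Hlf, gave -1.80 (SE 0.20), -1.003 (SE 0.20) and -1.27 (SE 0.20) in the fasted liver. In the refed liver they gave -0.93, -0.76 and -0.76. Ppara, the fasting receptor of fatty acid oxidation, gave -1.06 and -1.39 (each SE 0.20). Ddit3, a C/EBP relative of the stress response also called CHOP, was higher by 2.09 (SE 0.20) and 3.60 (SE 0.21). The T-box factor Tbx3 gave -0.15 (SE 0.20) and -1.23 (SE 0.20).

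**Figure D4:**
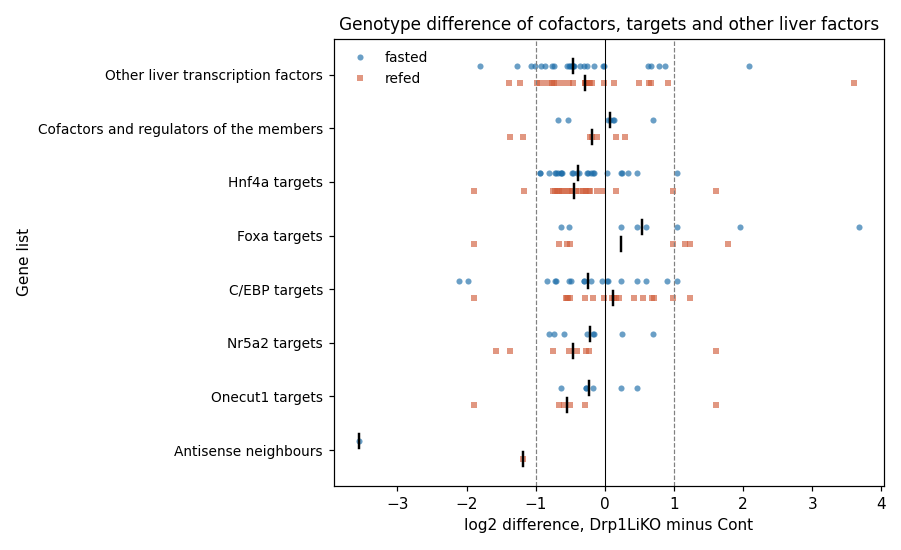
Drp1LiKO minus Cont differences of listed genes detected in at least 1 of the livers compared, in the fasted (circles) and refed (squares) liver on the log2 scale. Black bars are list medians and dashed lines mark 2-fold. Most Hnf4a targets lie below 0, with medians of -0.39 and -0.45 (0.00 and -0.18 with quantile normalization). Most fasted Foxa targets lie above 0, with a median of 0.53 (0.80 with quantile normalization).

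Hepatocyte markers were lower in the Drp1LiKO liver, 7 of 8 lower in each feeding state with medians of -0.63 and -0.47, but this depended on scaling. With quantile normalization the medians were -0.05 and -0.11, with 4 and 5 of 8 lower, and 4 of these markers also stand in the Hnf4a target list. Their summed scaled level was 2770 in the fasted Cont, 1850 in the fasted Drp1LiKO, 3310 in the refed Cont and 2340 in the refed Drp1LiKO liver, and Alb gave -0.52 (SE 0.20) and -0.55 (SE 0.20). On refeeding the marker medians were 0.20 in Cont and 0.18 in Drp1LiKO liver, with 3 of 8 markers lower in each, and -0.08 and -0.25 with quantile normalization. Minus the marker median, which carries the same dependence on scaling, fasted Foxa1 (-0.47) fell short of 2-fold, fasted Foxa3 (1.31) passed it and fasted Prox1 (0.995) came close. Fasted Cebpa, Foxa2 and Nr5a2 were left at 0.03, -0.13 and -0.03, and refed Cebpa at -0.37. Onecut1 was -1.37 in the fasted and -1.07 in the refed liver, and on refeeding in Cont liver Foxa1 (-1.59), Foxa2 (-1.19) and Onecut1 (-1.10) lay past 2-fold, of which only Foxa1 was called by its own difference.

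Onecut1, Foxa1 and Foxa2 are also made in bile duct cells. Of 6 cholangiocyte markers, 5 were detected in at least 1 liver and 2 in all, and these 2 were higher in the Drp1LiKO liver in each feeding state, 1 of them by less than 1 measurement SE in the fasted liver. Another marker, detected in the fasted Cont liver only, was called lower in the fasted Drp1LiKO liver, by at least 1.14 on the log2 scale. The summed levels of the markers detected on an array were 0.528 in the fasted Cont, 1.06 in the fasted Drp1LiKO, 0.366 in the refed Cont and 0.999 in the refed Drp1LiKO liver, over 4, 4, 2 and 4 markers, so the sums do not cover the same genes. The brightest, Spp1, gave 1.40 (SE 0.22) and 0.77 (SE 0.23). Sox9 was higher by 1.24 and by 1.67, the latter with its refed Cont signal not well above background. Epcam was below the detection limit in every liver.

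Of 9 macrophage markers, 7 were higher in the fasted and 9 in the refed Drp1LiKO liver, with summed levels of 37.6, 52.3, 45.2 and 92.1 in the order used above, over 8, 9, 7 and 9 markers. Clec4f was the brightest by mean log2 level, with Marco above it in both Drp1LiKO livers. Marco gave 1.65 and 1.61 and Trem2 2.43 and 1.64 (SE 0.20 or 0.21), and Gpnmb was higher by 2.43 in the fasted and at least 1.87 in the refed liver. The summed levels of the markers measured were 1.81, 3.41, 1.96 and 2.4 for hepatic stellate cells (7 of 7, with 6 in the refed Cont liver, Rgs5 the brightest), 55.9, 47.6, 59.3 and 40.3 for sinusoidal endothelium (6 of 6, Clec4g), and 0.524, 0.706, 0.596 and 0.644 for lymphatic endothelium (3 of 5, Lyve1, with Mmrn1 not well above background). They were 2.22, 1.68, 2.81 and 2.18 for lymphocytes (4 of 5, with 2 in each Cont liver, Cd3e, with Cd8a not well above background) and 92.5, 66.1, 55.0 and 58.0 for neutrophils (4 of 4, Csf3r, which makes up most of the sum). Lyve1 stands in both endothelial lists, and the lymphatic marker Ccl21a was not found on the array. Median genotype differences in the fasted and refed liver were 0.17 and -0.28 for sinusoidal and -0.21 and 0.06 for lymphatic endothelium. For lymphocytes they were 0.51 and 0.30, although Cd3e was lower in both. The neutrophil genes S100a8 and S100a9 gave -1.04 (SE 0.21) and -1.11 (SE 0.20) in the fasted and 0.94 (SE 0.20) and 1.04 (SE 0.20) in the refed liver, and the medians of the list were -0.75 and 0.48.

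Genes listed as markers of organs beside the liver were also read, and which cells gave their signal was not tested. The summed levels were 5.76, 6.84, 5.84 and 4.15 for pancreatic acinar cells (4 of 7, with 3 in each Drp1LiKO liver, Amy2a5, with Cpa1, Prss2 and Pnlip not well above background) and 103, 73.8, 98.5 and 66.6 for intestinal epithelium (2 of 4, Fabp2, with Vil1 and Cdx2 not well above background). Acinar markers had median genotype differences of -0.57 in the fasted and -0.76 in the refed liver, although fasted Amy2a5 gave 0.45. The acinar gene Cela2a was lower in the Drp1LiKO liver by at least 2.30 and 2.92 on the log2 scale. For adipocytes the summed levels were 8.46, 0.614, 41.4 and 0.566, from Cfd and Cidea (2 of 4 markers, Cidea the brightest by mean log2 level, with Cfd at least as bright in both Cont livers). Cfd and Cidea gave -5.07 (SE 0.22) and -3.12 (SE 0.21) in the fasted and -6.27 (SE 0.21) and -6.10 (SE 0.21) in the refed liver, while Adipoq and Lep stayed near background in every liver. The part of cell composition in the differences of the 9 genes was not tested.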

How the data were processed

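Liver RNA of 4 groups was read on 1 array each, and the labels do not say from how many mice. The authors deposited linear spot intensity, background-subtracted by Agilent Feature Extraction (version 10.7.1.1 per the file headers, 9.5.1.1 per the labels), and a table of intensity values that was recalculated as a quantile normalization (each column's median 39.59).

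Signals were set on the log2 scale relative to each array's 75th percentile, outlier spots were dropped and repeated spots averaged, leaving 39392 of 39429 probes. Of 28389 RefSeq accessions, 26761 were matched to GRCm38.p6 symbols. A gene was read from the probe well above background on the most arrays, then the brightest. Differences of at least 2-fold with the brighter signal well above background were called. limma 3.58.1 (R 4.3.3) fitted genotype and feeding state to genes detected on 2 or more arrays, with Benjamini-Hochberg adjustment. It was tested on simulated data that held no interaction of genotype and feeding state, so that case was not covered. Named beside the 9 genes were Dnm1l, antisense genes on the array, up to 6 called genes per list with the largest mean difference, the brightest marker of each list and markers called in both feeding states the same way, a few listed genes that ran against their list or changed direction between feeding states, and the 2 genes nearest in pattern to each gene whose values spanned at least 1. Members and lists were chosen with earlier results of these data known. The motif letters were chosen after the windows had been seen. Afterwards 3 listed genes and 1 motif were left out of the lists, for reasons unrelated to their values. Alternatives were median and quantile scaling, normexp with an offset of 50, the authors' table, other probe rules, thresholds and filters. Reading the lists under them was added after the values had been seen. The number of arrays limits precision.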

Additional observations from a re-analysis of the deposited data

Results flagged for a closer look

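Foxa1 and the brighter Foxa2 probe differed from Cont in opposite directions in the fasted and the refed Drp1LiKO liver, and neither contrast between feeding states was tested. For Foxa1 the refed difference exceeded the fasted one by 1.44, from -1.10 to 0.35, and the refed value lies 1.69 measurement SEs from 0. For Foxa2 the gap was 0.85, from -0.76 to 0.09, the refed value lies only 0.452 measurement SEs from 0, and the other Foxa2 probe was negative in both states.

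On refeeding, Foxa1, Cebpa and Prox1 went opposite ways in the 2 genotypes, again untested. The Drp1LiKO response minus the Cont response was 1.44 for Foxa1, -0.24 for Cebpa and -0.26 for Prox1. The smaller response lay only 0.248 measurement SEs from 0 for Foxa1, 0.204 for Cebpa and 0.228 for Prox1, and the authors' normalized values turn 1 of the responses of Cebpa and of Prox1.

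Of the target genes named from the lists for their size of difference, Nr0b2 and Saa1 passed 2 measurement SEs in opposite directions. The refed minus fasted genotype difference was -2.06 for Nr0b2 and 2.54 for Saa1, and it was not tested. Other listed targets did the same with smaller differences, among them Pck1 (0.46 and -0.51), Orm1 (-0.71 and 0.71) and Orm2 (-0.73 and 0.68), in the fasted and refed liver.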

How the results depend on the processing

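No paired analysis was possible because the labels give 1 array per group, and leaving out an array was not possible for the same reason: 3 arrays leave the additive model no residual degrees of freedom. Of 288 member differences recomputed under 8 alternatives, 10 changed sign, none of them in a called difference. Quantile normalization, like the authors' table, moved Hnf4a most: from -0.32 to 0.00 for genotype in the fasted liver, from -0.25 to -0.54 for Cont and from -0.30 to -0.77 for Drp1LiKO refeeding. It also moved Cebpb from -0.70 to -0.98 and Cebpa from -0.20 to -0.44 in Drp1LiKO refeeding, and the fasted genotype medians of the hepatocyte markers from -0.63 to -0.05 and of the Hnf4a targets from -0.39 to 0.00; the cause was not tested.

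With 1.5-fold in place of 2-fold, the members called went from 2 to 6 in the fasted and from 1 to 2 in the refed genotype comparison, and from 1 to 4 in Cont and 0 to 1 in Drp1LiKO refeeding. For Cont refeeding 2 members were called with median scaling (Foxa1, Foxa2), 3 with quantile normalization, 2 with normexp correction and 3 with the authors' table (each adding Foxa2, the cases of 3 also Onecut1); Foxa2 lies just short of 2-fold in the main setting. In limma 1 member, Onecut1, was called for genotype with median scaling, 1 with normexp correction, 1 among genes well above background on all 4 arrays and 1 with an intensity trend, against 0 in the main fit; the cause was not tested. The other alternatives gave the same counts, and no member was called for refeeding by limma under any. No member passed 2 measurement SEs in opposite directions in the 2 feeding states under any alternative. No scaling moved the median of all genes by more than 0.1; median scaling moved it most, by 0.09 for Drp1LiKO refeeding. All 12 probes were well above background, but the second probes of Nr5a2 and Onecut1 and the Prox1 probe were dim, and normexp correction moved Prox1 from 0.37 to 0.16 in the fasted and from 0.11 to -0.05 in the refed genotype comparison.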
